A study of Homo sapiens with 11 samples.

Results

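The genes described here are 44 genes of mitosis and of the passage from G2 into mitosis, chosen by symbol for what their proteins do in dividing cells, of 60676 Ensembl genes in the table of counts. All 44 symbols were found in the table and all 44 passed the filter on low counts, so none was left out. By role they are 6 cyclins, CDK1 and CDC25 phosphatases, 3 other mitotic kinases, 5 spindle checkpoint genes, 7 kinetochore and centromere genes, 5 kinesins, 4 genes of the chromosomal passenger complex, 5 spindle microtubule proteins, 2 cytokinesis genes, 4 genes around the anaphase-promoting complex (APC/C) and separase, and TOP2A, MKI67 and FOXM1. Each is given in all 11 libraries of a hypoxia time course.

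Entry into mitosis is driven by CDK1 bound to a B-type cyclin, which CDC25 phosphatases switch on. Chromosomes are then attached to spindle microtubules through kinetochores, the spindle checkpoint holds the APC/C until all are attached, and the APC/C with CDC20 marks cyclin B and securin for destruction, which frees separase to cut the sister chromatids apart. Transcription of these genes is low in G1 and peaks in G2 and mitosis, when the MuvB complex with B-MYB and then FOXM1 acts at their promoters. In resting or arrested cells the DREAM complex, which also contains MuvB, holds the same promoters down. For that reason the RNAs of this family are widely used as a gauge of how many cells in a culture are dividing.

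The cells were RWPE1, a human prostate epithelial line that was immortalized and does not form tumors. Untreated cells in normoxia, called 0 h, were compared with cells moved to hypoxia at 1% oxygen for 6, 12 or 24 h, to find genes that change throughout the response. There were 3 libraries each at 0, 6 and 12 h and 2 at 24 h. Hypoxic cultures also had 10 mM HEPES added to the medium, so each comparison with 0 h changes both oxygen and buffer. All groups are of 1 cell line, and the labels do not say whether replicates came from separate cultures, so p-values measure only the spread between these samples. These are bulk libraries, in which fewer cells in G2 or mitosis and less RNA per cell cannot be told apart.

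Libraries held between 27496009 and 49488345 counted reads, with TMM scaling factors of 0.539 (24 h replicate 2, the lowest) to 1.32 (0 h replicate 2, the highest). Basal epithelial markers were abundant in all 11 libraries, with KRT5 between 6077 and 15881 CPM (counts per 1e+06 scaled counts) and TP63 between 67.0 and 259 CPM. Of the markers of secretory luminal cells, KLK3 had 0 counts in all libraries. The endothelial markers reached at most 0.228 CPM, the leukocyte genes PTPRC and CD14 0.347 and 3.38 CPM, and of 7 fibroblast markers COL1A1 lay between 27.7 and 60.5 CPM and the other 6 at 0.137 CPM or less. All 6 hypoxia check genes were called higher at each time, and CA9, which encodes a carbonic anhydrase, stood at log2 fold changes against 0 h of 3.17 (6 h), 4.402 (12 h) and 5.68 (24 h).

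The DNA element most often tied to this family is the cell cycle genes homology region (CHR), TTTGAA, which MuvB binds, commonly found some bases downstream of CCAAT boxes, the sites of NF-Y. The stretches printed here are reference sequence upstream of 5 genes that went different ways in these libraries, each 150 bases ending at the base before the RefSeq transcription start (GRCh38.p14), with a 30-base piece for HMMR, the gene that fell most at 6 and 12 h. Capitals mark TTTGAA or CCAAT on either strand, so that ATTGG is a CCAAT box on the other strand, and CCAATTGG holds an overlapping box on each strand.
CCNB1 (5:69167000-69167149, plus strand): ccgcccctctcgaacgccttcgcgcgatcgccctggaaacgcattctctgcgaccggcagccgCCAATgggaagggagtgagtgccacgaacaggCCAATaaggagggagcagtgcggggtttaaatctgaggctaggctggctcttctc
CCNB2 (15:59104996-59105145, plus strand): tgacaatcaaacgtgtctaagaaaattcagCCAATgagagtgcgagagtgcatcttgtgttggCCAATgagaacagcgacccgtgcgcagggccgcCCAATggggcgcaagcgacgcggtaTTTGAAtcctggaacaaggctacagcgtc
CDC20 (1:43358831-43358980, plus strand): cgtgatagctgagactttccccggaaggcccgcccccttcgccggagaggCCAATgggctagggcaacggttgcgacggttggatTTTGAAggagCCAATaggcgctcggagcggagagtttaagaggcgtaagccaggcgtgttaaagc
PTTG1 (5:160421705-160421854, plus strand): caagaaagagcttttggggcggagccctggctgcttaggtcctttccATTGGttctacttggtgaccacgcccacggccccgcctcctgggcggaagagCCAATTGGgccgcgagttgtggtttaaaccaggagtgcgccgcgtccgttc
TOP2A (17:40417897-40418046, minus strand): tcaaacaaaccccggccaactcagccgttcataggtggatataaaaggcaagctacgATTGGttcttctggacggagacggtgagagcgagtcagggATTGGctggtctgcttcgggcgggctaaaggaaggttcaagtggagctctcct
HMMR (5:163460594-163460623, plus strand): tgtggggagaTTTGAATTTGAAaccggtag
CCNB2, with 3 CCAAT boxes and a CHR just upstream of its start, fell at all 3 times, while CDC20, with a CHR between 2 CCAAT boxes, was called at none of them. PTTG1, the gene that rose at all 3 times, and CCNB1, called at none, have CCAAT boxes and no TTTGAA in the printed bases. Other spellings of the CHR were not searched for, so a CHR is not excluded there. TOP2A has its TTTGAA farther upstream, outside the printed bases. The last bases of the CCNB1 and CCNB2 stretches lie in the first exon as GENCODE release 44 draws it. HMMR has a pair of TTTGAA joined end to end, in bases that GENCODE places in the first exon of a longer HMMR transcript.

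RefSeq promoter windows of 300 bases, from 250 before the start to 50 after it, were matched for 37 of the 44 genes. AURKA, BIRC5, BUB3, FOXM1, TPX2, TTK and UBE2C had no entry. At least 1 TTTGAA on either strand was present in 25 of the 37 windows (67.6%), against 15.4% of 27305 windows in the whole table and 1 of 36 windows of genes of G1/S and DNA replication (2.78%). At least 2 CCAAT boxes were present in 51.4%, against 11.3% of all windows and 33.3% of the G1/S windows. The core of a hypoxia response element, ACGTG or GCGTG on either strand, was present in 62.2% of the windows of mitosis genes, 48.4% of all windows and 75.0% of the G1/S windows. A match is a string of letters, not a bound site.

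Per kilobase of exon, CDC25B was the most abundant of the 44 in normoxia at 53.1 ± 6.49 CPM per kb (SD, n = 3), followed by UBE2C at 44.7 ± 8.25, TPX2 at 37.9 ± 6.94, CCNB1 at 34.4 ± 4.57 and CDC20 at 33.4 ± 4.93. The mean ± SD of each overlapped with that of its next neighbour in that order, whereas the mean ± SD of CDC25B did not overlap with that of TPX2, CCNB1 or CDC20. TOP2A at 26.98 ± 5.32 and PTTG1 at 24.7 ± 3.08 CPM per kb came next. At the other end stood CENPE at 2.56 ± 0.374, ESPL1 at 2.24 ± 0.371 and SPC25 at 2.05 ± 0.397 CPM per kb, with overlapping SDs. PRC1 at 0.370 ± 0.0289 and NUSAP1 at 0.128 ± 0.0301 CPM per kb were lower still. Of their exonic bases 57.6% and 86.8% are shared with another annotated gene on the same strand, so the levels of PRC1 and NUSAP1 are uncertain. Of BUB1B's exonic bases 10.2% are shared in the same way with PAK6.

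After 6 h of hypoxia 14 of the 44 genes were called lower than in normoxia and PTTG1 was called higher. A call is a Benjamini-Hochberg adjusted p under 0.05 from the quasi-likelihood test of edgeR, over all 19981 genes tested, of which 52.8% were called at 6 h in either direction. The lowered genes were 31.8% of the 44, near the 27.7% of all tested genes called lower, while 25.1% of all tested genes were called higher. At 12 h 16 genes (36.4%) were lower and PTTG1 was higher, against 27.1% and 24.2% of all tested genes (51.2% either way). At 24 h 13 genes (29.5%) were lower and PTTG1 and BUB3 were higher, against 31.3% and 29.9% (61.2% either way). The share called lower was thus close to that of all genes at each time, and the share called higher, 2.27%, 2.27% and 4.55%, was below it.

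The 44 genes leaned down as a body. Their median log2 fold change was -0.58 at 6 h, -0.62 at 12 h and -0.32 at 24 h, where the median of all tested genes lay at -0.0021, -0.033 and -0.065. Negative values were found for 38, 41 and 35 of the 44, against 10008, 10252 and 10356 of all 19981 tested genes. The libraries of 6 h lay wholly below those of 0 h for 24 genes (54.5%), against 36% of all tested genes, and wholly above for 1 gene (2.27%), against 33.6%. At 12 h these counts were 28 (63.6%) and 1 (2.27%), against 37.6% and 34.8% of all tested genes. At 24 h they were 21 (47.7%) and 5 (11.4%), against 39.4% and 33.7%.

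The calls fell into few patterns over time. CCNB2, CDC25B, NUF2, CENPE, HMMR and TOP2A were lower at all 3 times and PTTG1 was higher at all 3. CDC25C, NDC80, KIF2C, NEK2 and KIF11 were lower at 6 and 12 h, SPC24, DLGAP5 and PRC1 at 6 h, AURKB, CCNA2 and KIF20A at 12 h, and ESPL1 and KIF4A at 12 and 24 h. BUB1B, CDCA8, FOXM1, INCENP and MKI67 were lower and BUB3 was higher at 24 h alone, which compares calls and is not a test of the difference between times. For 18 genes, CCNB1, CDK1, PLK1 and AURKA among them, no comparison with 0 h passed the threshold.

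**Figure D1:**
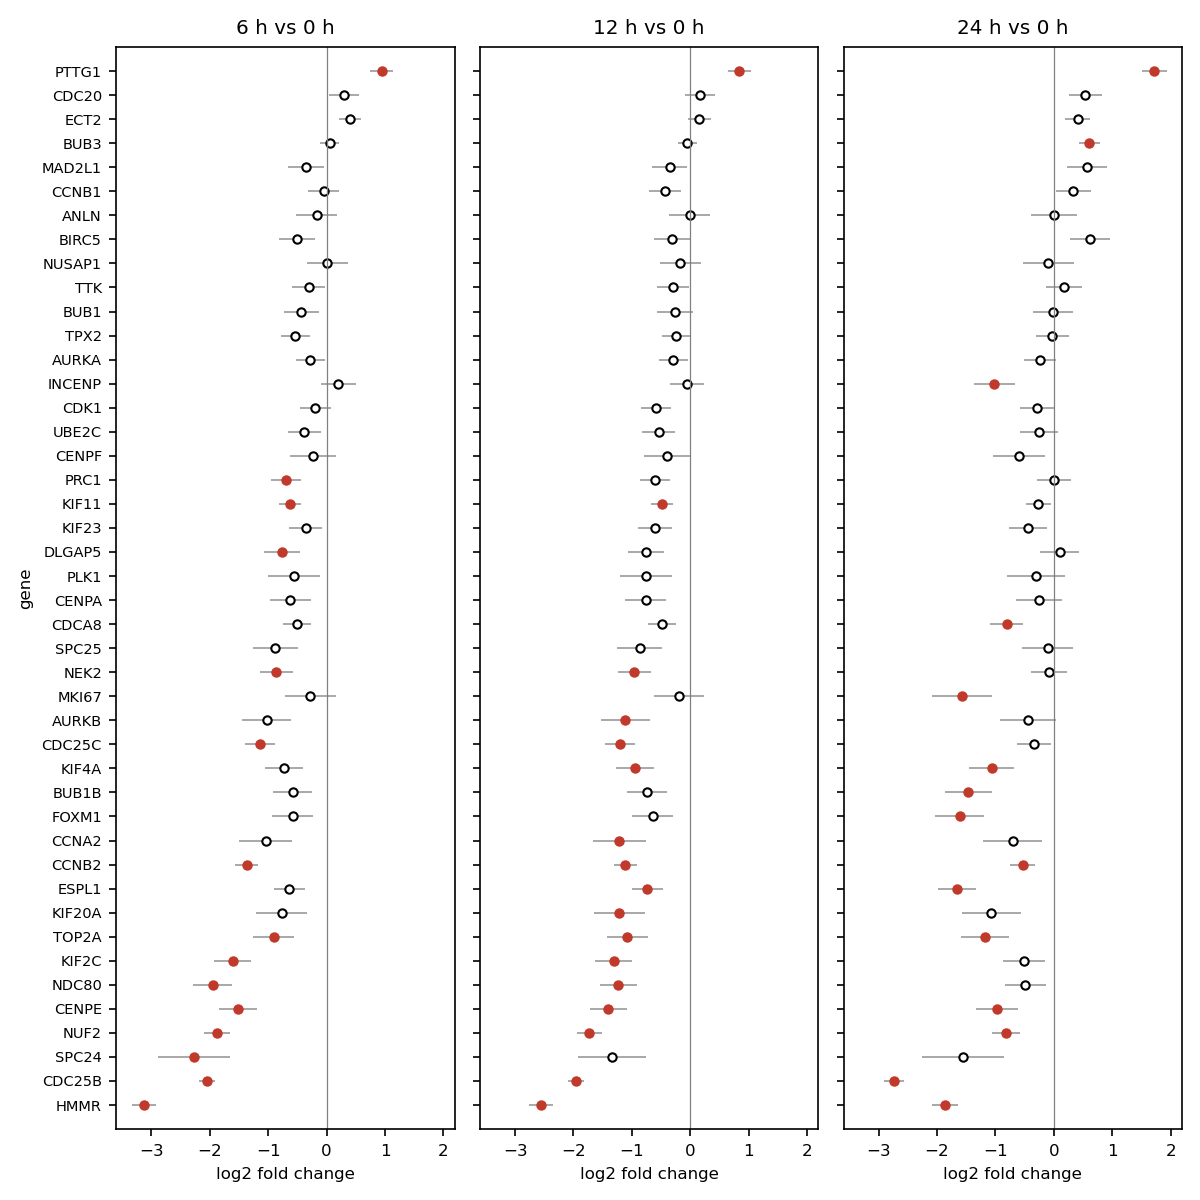
Log2 fold change against normoxia (x axis) of the 44 genes (rows, ordered by their average) at 6, 12 and 24 h, with bars of 1 standard error; filled red points are called (edgeR adjusted p under 0.05), open points are not. HMMR and CDC25B stand at the lowered end of the order, at -3.13 and -2.04 at 6 h, and PTTG1 is the gene farthest to the right at each time.

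The 44 genes swung together between libraries of the same time. In 6 h replicate 3 the median of the 44 genes was -1.52 relative to the normoxic mean on the log2 CPM scale, while 6 h replicates 1 and 2 stood at -0.33 and -0.30. The median of 12 h replicate 1 was -1.10, with replicates 2 and 3 at -0.36 and -0.51. The 24 h libraries had medians of -0.42 and -0.45, although single roles differed, with TOP2A, MKI67 and FOXM1 at a median of -1.16 and -1.96 and the cytokinesis genes at 0.67 and -0.49 in replicates 1 and 2. Over all genes this pair was the farthest apart of any within a time (chi-square per gene 235.8, the others 3.08 to 68.5). The normoxic libraries stood at 0.20, -0.21 and 0.007. Within 6 h, replicate 3 was the lowest library for 43 of the 44 genes (97.7%), where it was the lowest for 36.8% of all tested genes. Within 12 h, replicate 1 was the lowest for 42 (95.5%, all tested genes 39.9%), and within normoxia replicate 2 was the lowest for 39 (88.6%, all tested genes 40%). CDC25B was the exception at 6 h, with its highest value of that time in replicate 3.

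Genes of G1/S and DNA replication did not show a swing of this size at 6 and 12 h. The median of 41 such genes was -0.43 in 6 h replicate 3, against -0.20 and -0.22 in the other 6 h libraries. It was -0.12 in 12 h replicate 1, against 0.02 and -0.003. The same libraries were still the lowest for most G1/S genes, 6 h replicate 3 for 73.2% and 12 h replicate 1 for 68.3%. In normoxia replicate 2 was the lowest for 92.7% of them. Their normoxic medians were 0.09, -0.19 and 0.12, beside 0.20, -0.21 and 0.007 for the mitosis genes. The median SD of the mitosis genes within a time was 0.68 on the log2 scale at 6 h and 0.35 at 12 h, where that of all tested genes was 0.24 and 0.19, and at 24 h it was 0.33, where that of all genes was 0.44. Over the 946 pairs of mitosis genes the median correlation of the within-time deviations was 0.80, as a description over 11 libraries that share depth and culture. NDC80 followed the median of the others most closely (r = 0.996), whereas CDC25B (r = -0.04) and NUSAP1 (r = -0.31) did not follow it. What set these libraries apart was not tested.

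**Figure D2:**
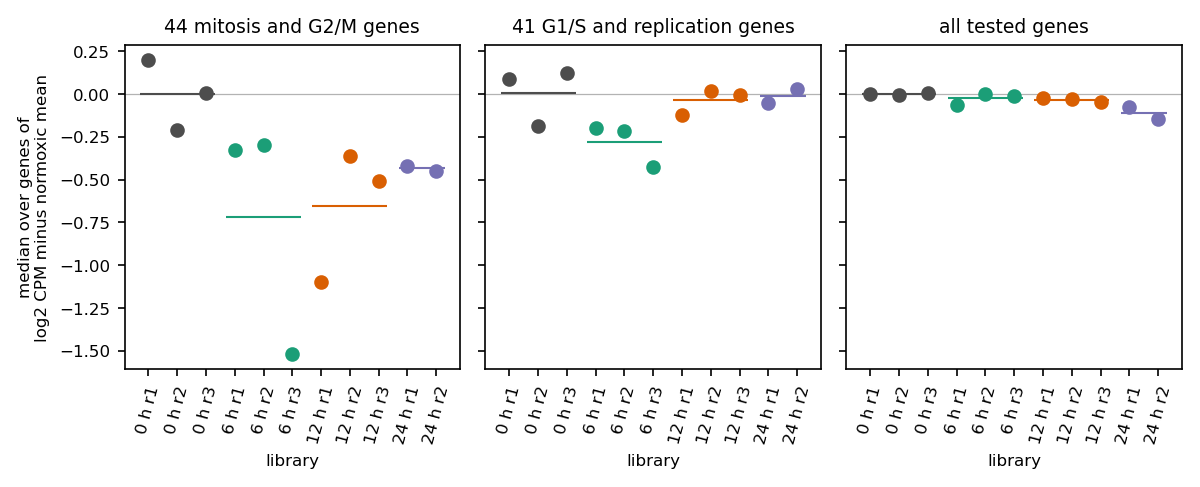
Each point is 1 library, and its height is the median over a gene list of log2 CPM minus the normoxic mean; horizontal lines are means of a time. In the left panel 6 h replicate 3 at -1.52 and 12 h replicate 1 at -1.10 lie well under their neighbours, in the middle panel the 41 G1/S genes stay between -0.43 and 0.12, and in the right panel all tested genes stay between -0.15 and 0.009.

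Calls depended on these libraries. When 6 h replicate 3 was left out, 9 genes were called lower and 3 higher at 6 h, with a median of -0.27 on the log2 scale. Of all 19861 genes then tested 4987 were lower and 4715 higher. Without 0 h replicate 1 the 6 h count of lower genes was also 9 (4653 of all 19713 genes). Without 12 h replicate 1, 8 genes were called lower at 12 h (4537 of all 19908) and the median was -0.44. A fit with both 6 h replicate 3 and 12 h replicate 1 left out was a choice made after the data were seen. There 12 genes were lower and 2 higher at 6 h (4991 and 4657 of all 19790), and 17 lower at 12 h (4633). At 24 h 7 genes were called lower without 0 h replicate 1 (5542 of all 19713) and 4 higher without 6 h replicate 3 (5981 of all 19861). Without 24 h replicate 1 or 24 h replicate 2 the 24 h median of the 44 genes was -0.52 or -0.46. That of all tested genes was then -0.24 or -0.11. A fit without a 24 h library assumes that the lone sample left varies like the other groups. With limma-voom and sample quality weights the 24 h calls were 2 lower and 1 higher, where 2450 and 3719 of all 19981 genes were called. Of the 15 genes called at 24 h in the main fit only these 3 were kept. Losses in the fit with quality weights are not listed under the single genes below. Scaled by library size alone, the median of all tested genes moved to -0.32, -0.50 and -0.97 at 6, 12 and 24 h and that of the 44 genes to -0.90, -1.08 and -1.27, and at 24 h 30 of them were then called lower and 1 higher, where 11305 of all 19981 genes were lower and 2222 higher.

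**Figure D3:**
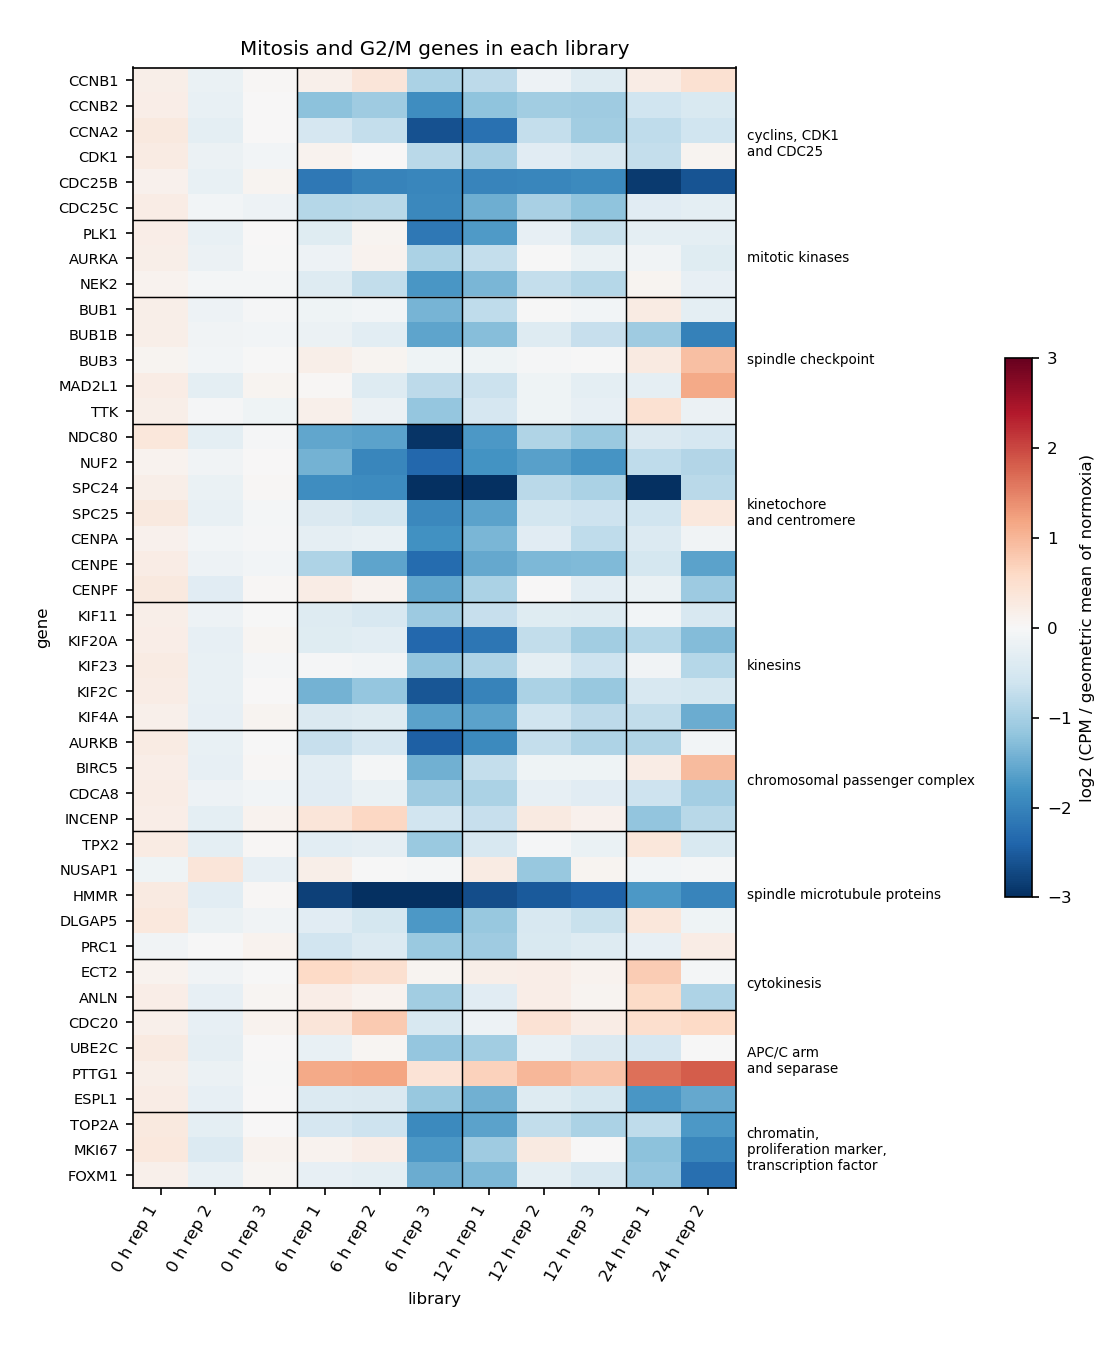
Rows are the 44 genes by role, columns the 11 libraries, and color is log2 of CPM over the geometric mean of normoxia, from blue (lower) to red (higher). The columns of 6 h replicate 3 and 12 h replicate 1 are blue across nearly all rows, the rows of CDC25B and HMMR are blue in all hypoxic libraries, and the row of PTTG1 is red in them.

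Among the switches of mitotic entry, CDC25B, the phosphatase that starts the activation of CDK1, was lower in all 8 hypoxic libraries. Positions are those of GENCODE release 44 on GRCh38. CDC25B (ENSG00000101224, 20:3786772-3806121) stood at 224, 178 and 220.0 CPM in normoxia, 46.6, 51.2 and 53.0 at 6 h, 52.3, 53.5 and 54.8 at 12 h, and 28.2 and 34.3 at 24 h. The hypoxic libraries of a time lay close together and all 8 were below all 3 normoxic ones. CDC25B's log2 fold changes from edgeR were -2.04 (SE 0.14, adjusted p = 6.90e-07) at 6 h, -1.95 (SE 0.14, adjusted p = 1.45e-06) at 12 h and -2.73 (SE 0.17, adjusted p = 4.58e-07) at 24 h. Among the 11 fits with a library left out its call was kept at each time.

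CDC25C (ENSG00000158402, 5:138285269-138338355), which keeps CDK1 active once mitosis starts, stood at 13.8, 11.2 and 10.6 CPM in normoxia, 6.53, 6.62 and 3.11 at 6 h, 4.30, 6.05 and 5.09 at 12 h, and 9.24 and 9.59 at 24 h. The hypoxic values were all below normoxia, and those at 24 h were above those at 6 and 12 h. CDC25C's log2 fold changes from edgeR were -1.14 (SE 0.26, adjusted p = 0.00264) at 6 h, -1.20 (SE 0.26, adjusted p = 0.00213) at 12 h and -0.33 (SE 0.29, adjusted p = 0.330) at 24 h.

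The cyclins did not move alike. CCNB2 (ENSG00000157456, 15:59105126-59125045), a B-type cyclin, stood at 45.9, 34.3 and 40.1 CPM in normoxia, 16.9, 19.0 and 10.9 at 6 h, 17.3, 19.4 and 18.9 at 12 h, and 26.3 and 29.2 at 24 h. All hypoxic libraries were below all normoxic ones, with 24 h between the earlier times and normoxia. CCNB2's log2 fold changes from edgeR were -1.37 (SE 0.19, adjusted p = 9.92e-05) at 6 h, -1.11 (SE 0.19, adjusted p = 0.000515) at 12 h and -0.53 (SE 0.22, adjusted p = 0.0480) at 24 h. CCNB2 lost its 24 h call without 0 h replicates 1 or 3, 6 h replicate 1, 12 h replicates 1 or 3 or 24 h replicates 1 or 2 (-0.63 to -0.43), and with limma-voom (-0.53), DESeq2 (-0.51) and median-of-ratios scaling (-0.51).

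CCNB1 (ENSG00000134057, 5:69167135-69178245), the B-type cyclin on which mitotic entry depends most, stood at 94.0, 71.9 and 85.2 CPM in normoxia, 92.3, 107 and 43.3 at 6 h, 48.5, 74.6 and 63.6 at 12 h, and 96.9 and 114 at 24 h. The 6 h libraries spanned the normoxic range, 6 h replicate 3 being the lowest, and both 24 h libraries were above all normoxic ones. CCNB1's log2 fold changes from edgeR were -0.05 (SE 0.27, adjusted p = 0.880) at 6 h, -0.43 (SE 0.27, adjusted p = 0.207) at 12 h and 0.34 (SE 0.30, adjusted p = 0.348) at 24 h. No comparison of CCNB1 with 0 h passed the threshold.

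CCNA2 (ENSG00000145386, 4:121816444-121823883), the cyclin of S phase and G2, stood at 37.1, 24.7 and 30.8 CPM in normoxia, 21.6, 18.6 and 4.97 at 6 h, 6.49, 18.7 and 14.8 at 12 h, and 17.9 and 20.0 at 24 h. Every hypoxic value was below normoxia, and 6 h replicate 3 and 12 h replicate 1 were far below the others. CCNA2's log2 fold changes from edgeR were -1.04 (SE 0.45, adjusted p = 0.0666) at 6 h, -1.21 (SE 0.45, adjusted p = 0.0385) at 12 h and -0.71 (SE 0.51, adjusted p = 0.244) at 24 h. CCNA2 lost its 12 h call without 0 h replicates 1, 2 or 3, 6 h replicate 2 or 12 h replicates 1 or 3 (-1.36 to -0.89), and with the replicate block (-1.22). CCNA2 was called lower at 6 h without 6 h replicate 1, 12 h replicate 1 or 24 h replicates 1 or 2 (-1.40 to -1.04).

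CDK1 (ENSG00000170312, 10:60778331-60794852), the kinase that these cyclins bind, stood at 43.9, 33.2 and 35.3 CPM in normoxia, 40.2, 37.2 and 21.2 at 6 h, 19.0, 29.2 and 26.6 at 12 h, and 22.7 and 39.1 at 24 h. At 12 h all values were below normoxia, while those at 6 and 24 h overlapped with it. CDK1's log2 fold changes from edgeR were -0.19 (SE 0.26, adjusted p = 0.558) at 6 h, -0.59 (SE 0.26, adjusted p = 0.0775) at 12 h and -0.28 (SE 0.30, adjusted p = 0.427) at 24 h. CDK1 was called lower at 12 h without 6 h replicate 3 or 24 h replicates 1 or 2 (-0.61 to -0.59).

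**Figure D4:**
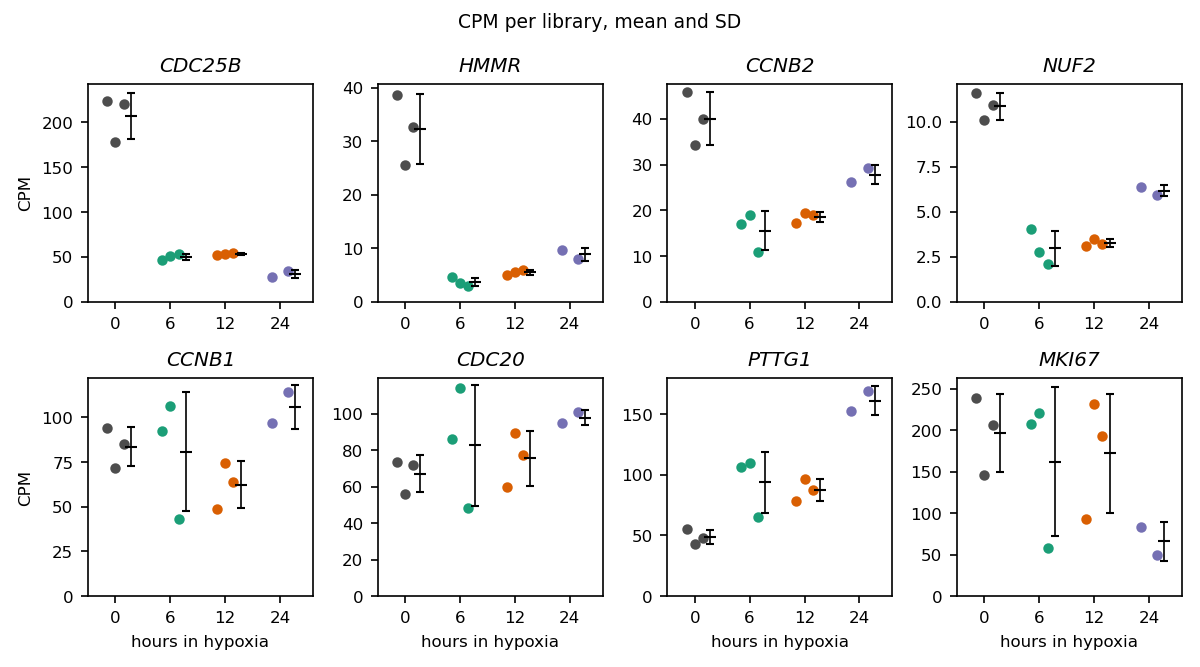
CPM (y axis, linear, from 0) of 8 genes in each library by hours in hypoxia (x axis), colored by time, with the mean and SD as black bars (n = 3, and 2 at 24 h). CDC25B, HMMR, CCNB2 and NUF2 are lower in all 8 hypoxic libraries, CCNB1, CDC20 and MKI67 have a low 6 h library and a low 12 h library, and PTTG1 is higher in all hypoxic libraries.

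The mitotic kinases PLK1 and AURKA were not called at any time. PLK1 (ENSG00000166851, 16:23677656-23690367), which acts at entry, at centrosomes and at kinetochores, stood at 43.1, 32.3 and 37.5 CPM in normoxia, 29.01, 39.5 and 8.42 at 6 h, 11.4, 31.6 and 23.6 at 12 h, and 30.7 and 30.5 at 24 h. In 6 h replicate 3 and 12 h replicate 1 its level was far below that of the other hypoxic libraries. PLK1's log2 fold changes from edgeR were -0.56 (SE 0.44, adjusted p = 0.302) at 6 h, -0.76 (SE 0.44, adjusted p = 0.169) at 12 h and -0.30 (SE 0.50, adjusted p = 0.616) at 24 h. Of PLK1's exonic bases 12.8% are shared with a gene on the other strand. PLK1 was called lower at 12 h without 6 h replicate 3 (-0.75).

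AURKA (ENSG00000087586, 20:56369389-56392337), the kinase of spindle poles, stood at 61.0, 48.3 and 54.2 CPM in normoxia, 48.8, 58.2 and 27.9 at 6 h, 33.2, 53.7 and 47.0 at 12 h, and 50.1 and 42.3 at 24 h. Values at each time overlapped with normoxia. AURKA's log2 fold changes from edgeR were -0.28 (SE 0.24, adjusted p = 0.353) at 6 h, -0.29 (SE 0.24, adjusted p = 0.344) at 12 h and -0.24 (SE 0.27, adjusted p = 0.468) at 24 h. NEK2, which parts the centrosomes, fell by 0.86 at 6 h and by 0.96 at 12 h on the log2 scale (edgeR adjusted p = 0.0205 and 0.0130) and was at -0.08 at 24 h. NEK2 lost its 6 h call without 0 h replicate 1 or 6 h replicate 3 (-0.81 to -0.55). NEK2 lost its 12 h call without 12 h replicate 1 (-0.79).

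Among the checkpoint genes BUB1B fell and BUB3 rose, both at 24 h. BUB1B (ENSG00000156970, 15:40161023-40221123), the checkpoint kinase that holds CDC20, stood at 23.5, 19.4 and 19.5 CPM in normoxia, 18.5, 16.6 and 6.94 at 6 h, 8.63, 15.9 and 12.9 at 12 h, and 9.88 and 5.12 at 24 h. Normoxia lay above every hypoxic value, and 24 h replicate 2 was the lowest of all. BUB1B's log2 fold changes from edgeR were -0.58 (SE 0.34, adjusted p = 0.163) at 6 h, -0.74 (SE 0.34, adjusted p = 0.0845) at 12 h and -1.46 (SE 0.40, adjusted p = 0.00725) at 24 h. BUB1B lost its 24 h call without 24 h replicate 2 (-1.10). BUB1B was called lower at 12 h without 6 h replicate 3 or 24 h replicates 1 or 2 (-0.76 to -0.73).

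BUB3 (ENSG00000154473, 10:123154402-123170467), which tethers BUB1 and BUB1B to kinetochores, stood at 145, 127 and 135 CPM in normoxia, 153, 145 and 125 at 6 h, 125, 133 and 135 at 12 h, and 163 and 251 at 24 h. Both 24 h values were above all others, but 24 h replicate 2 was far above 24 h replicate 1. BUB3's log2 fold changes from edgeR were 0.05 (SE 0.16, adjusted p = 0.799) at 6 h, -0.05 (SE 0.16, adjusted p = 0.811) at 12 h and 0.61 (SE 0.18, adjusted p = 0.00990) at 24 h. BUB3 lost its 24 h call without 24 h replicate 2 (0.25). Scaled by library size alone, BUB3's 24 h value turned to -0.37.

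MAD2L1 (ENSG00000164109, 4:120055623-120066858), the checkpoint protein that inhibits CDC20, stood at 24.2, 17.1 and 22.0 CPM in normoxia, 21.4, 15.9 and 12.1 at 6 h, 13.4, 19.1 and 16.9 at 12 h, and 17.2 and 45.5 at 24 h. The 2 values at 24 h were far apart, replicate 1 at the lower end of the normoxic range and replicate 2 above all other libraries. MAD2L1's log2 fold changes from edgeR were -0.36 (SE 0.31, adjusted p = 0.343) at 6 h, -0.35 (SE 0.31, adjusted p = 0.355) at 12 h and 0.57 (SE 0.34, adjusted p = 0.162) at 24 h. MAD2L1 was called higher at 24 h without 24 h replicate 1 (1.05). TTK, the kinase that starts checkpoint signaling, was at -0.31, -0.29 and 0.18 on the log2 scale, and BUB1 at -0.43, -0.26 and -0.0093, none of them called.

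The NDC80 complex, the 4-protein link between kinetochore and microtubule, had among its genes some of the largest losses. NDC80 (ENSG00000080986, 18:2571557-2616635) stood at 18.6, 12.0 and 14.3 CPM in normoxia, 5.02, 4.83 and 1.91 at 6 h, 4.47, 7.82 and 6.81 at 12 h, and 10.9 and 10.5 at 24 h. All hypoxic values were below normoxia, lowest in 6 h replicate 3 and highest at 24 h. NDC80's log2 fold changes from edgeR were -1.95 (SE 0.33, adjusted p = 0.000341) at 6 h, -1.23 (SE 0.32, adjusted p = 0.00638) at 12 h and -0.49 (SE 0.36, adjusted p = 0.251) at 24 h. NDC80's call was kept at 6 and 12 h in all 11 fits with a library left out.

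NUF2 (ENSG00000143228, 1:163266576-163355764), the partner of NDC80, stood at 11.6, 10.1 and 10.9 CPM in normoxia, 4.03, 2.79 and 2.10 at 6 h, 3.11, 3.50 and 3.20 at 12 h, and 6.38 and 5.94 at 24 h. The 3 hypoxic times were all below normoxia, and 24 h was above 6 and 12 h. NUF2's log2 fold changes from edgeR were -1.88 (SE 0.22, adjusted p = 2.33e-05) at 6 h, -1.73 (SE 0.22, adjusted p = 5.42e-05) at 12 h and -0.82 (SE 0.24, adjusted p = 0.0108) at 24 h. SPC24 (ENSG00000161888, 19:11131520-11155807), another of the 4, stood at 8.92, 6.80 and 8.01 CPM in normoxia, 2.15, 2.14 and 0.758 at 6 h, 0.677, 4.50 and 4.07 at 12 h, and 0.984 and 4.52 at 24 h. Its hypoxic values were below normoxia and differed more between replicates than those of any other gene of the 44 (pooled SD 1.08 on the log2 scale), with 6 h replicate 3, 12 h replicate 1 and 24 h replicate 1 lowest. SPC24's log2 fold changes from edgeR were -2.27 (SE 0.62, adjusted p = 0.00794) at 6 h, -1.34 (SE 0.58, adjusted p = 0.0705) at 12 h and -1.55 (SE 0.70, adjusted p = 0.0719) at 24 h. SPC24 was called lower at 12 h without 24 h replicates 1 or 2 (-1.36 to -1.34). SPC24 was called lower at 24 h without 12 h replicate 1 or 24 h replicate 2 (-3.02 to -1.55). SPC25 was at -0.88, -0.86 and -0.11, not called. SPC25 was called lower at 6 h without 24 h replicates 1 or 2 (-0.92). SPC25 was called lower at 12 h without 6 h replicate 3 or 24 h replicates 1 or 2 (-0.89 to -0.86).

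CENPE (ENSG00000138778, 4:103105349-103198445), the kinesin that carries chromosomes to the spindle equator, stood at 29.6, 22.8 and 23.7 CPM in normoxia, 13.3, 8.43 and 5.06 at 6 h, 8.73, 9.96 and 10.1 at 12 h, and 17.5 and 8.28 at 24 h. All hypoxic values were below normoxia, and the 2 at 24 h were far apart. CENPE's log2 fold changes from edgeR were -1.52 (SE 0.32, adjusted p = 0.00163) at 6 h, -1.40 (SE 0.32, adjusted p = 0.00294) at 12 h and -0.97 (SE 0.36, adjusted p = 0.0325) at 24 h. CENPE lost its 24 h call without 0 h replicate 1 or 24 h replicate 2 (-0.85 to -0.56), and with only the groups compared in the fit (-0.95). Without 24 h replicate 1 CENPE's 24 h value was -1.67.

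CENPA (ENSG00000115163, 2:26764289-26801067), the histone H3 variant of centromeres, stood at 14.7, 12.7 and 13.2 CPM in normoxia, 11.2, 11.6 and 3.81 at 6 h, 5.21, 10.7 and 7.97 at 12 h, and 10.1 and 12.6 at 24 h. Each of the 8 hypoxic values was below the normoxic ones. CENPA's log2 fold changes from edgeR were -0.62 (SE 0.35, adjusted p = 0.152) at 6 h, -0.76 (SE 0.35, adjusted p = 0.0864) at 12 h and -0.25 (SE 0.39, adjusted p = 0.595) at 24 h. CENPA was called lower at 12 h without 6 h replicate 3 or 12 h replicate 2 (-1.06 to -0.76).

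CENPF (ENSG00000117724, 1:214603185-214664574), a large kinetochore protein of G2 and mitosis, stood at 105, 68.4 and 88.7 CPM in normoxia, 101, 92.8 and 29.1 at 6 h, 44.3, 86.9 and 68.6 at 12 h, and 75.4 and 40.2 at 24 h. Values at 6, 12 and 24 h overlapped with normoxia, with 6 h replicate 3 far below its neighbours. CENPF's log2 fold changes from edgeR were -0.24 (SE 0.40, adjusted p = 0.637) at 6 h, -0.39 (SE 0.40, adjusted p = 0.429) at 12 h and -0.60 (SE 0.45, adjusted p = 0.268) at 24 h.

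Of the kinesins, KIF11 (ENSG00000138160, 10:92574105-92655395), the motor that pushes spindle poles apart, stood at 68.8, 55.1 and 61.0 CPM in normoxia, 46.6, 43.8 and 28.9 at 6 h, 37.9, 47.4 and 46.6 at 12 h, and 58.4 and 44.1 at 24 h. The 6 and 12 h values were below normoxia and those at 24 h overlapped with it. KIF11's log2 fold changes from edgeR were -0.63 (SE 0.19, adjusted p = 0.0138) at 6 h, -0.49 (SE 0.19, adjusted p = 0.0475) at 12 h and -0.27 (SE 0.21, adjusted p = 0.297) at 24 h. KIF11 lost its 6 h call without 0 h replicate 1 or 6 h replicate 3 (-0.55 to -0.44). KIF11 lost its 12 h call without 0 h replicates 1, 2 or 3, 6 h replicate 2 or 12 h replicates 1, 2 or 3 (-0.58 to -0.39), and with the replicate block (-0.47).

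KIF20A (ENSG00000112984, 5:138178719-138187723), a motor of the central spindle, stood at 43.9, 32.5 and 39.8 CPM in normoxia, 30.03, 30.9 and 7.52 at 6 h, 8.59, 22.9 and 18.6 at 12 h, and 21.1 and 15.6 at 24 h. All hypoxic values were below normoxia, with 6 h replicate 3 and 12 h replicate 1 lowest. KIF20A's log2 fold changes from edgeR were -0.77 (SE 0.44, adjusted p = 0.155) at 6 h, -1.21 (SE 0.44, adjusted p = 0.0356) at 12 h and -1.07 (SE 0.51, adjusted p = 0.0828) at 24 h. KIF20A lost its 12 h call without 0 h replicates 1, 2 or 3 or 12 h replicates 1 or 3 (-1.33 to -0.90). KIF20A was called lower at 24 h without 6 h replicate 3 (-1.07).

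KIF2C, which takes microtubule ends apart, fell by 1.61 at 6 h and by 1.31 at 12 h on the log2 scale (edgeR adjusted p = 0.00118 and 0.00457) and was at -0.51 at 24 h. KIF2C's calls were kept in all 11 fits with a library left out. KIF4A, a chromosome-bound motor, fell by 0.94 at 12 h and by 1.07 at 24 h (adjusted p = 0.0284 and 0.0271) and was at -0.72 at 6 h. KIF4A lost its 12 h call without 0 h replicates 1 or 3 or 12 h replicates 1 or 3 (-1.02 to -0.70). KIF4A lost its 24 h call without 0 h replicates 1 or 3 or 24 h replicate 2 (-1.04 to -0.76). KIF4A was called lower at 6 h without 24 h replicates 1 or 2 (-0.76 to -0.75). KIF23, a motor of the midbody, was at -0.36, -0.60 and -0.44, not called. KIF23 was called lower at 12 h without 6 h replicate 3 or 24 h replicate 1 (-0.63 to -0.60).

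In the chromosomal passenger complex 1 of the 4 genes was called lower at 12 h and 2 at 24 h, against 27.1% and 31.3% of all tested genes. AURKB (ENSG00000178999, 17:8204733-8210600), its kinase, stood at 22.6, 16.2 and 18.8 CPM in normoxia, 11.7, 13.4 and 3.47 at 6 h, 5.04, 11.6 and 9.98 at 12 h, and 10.2 and 18.1 at 24 h. Values at 6 and 12 h were below normoxia, and 24 h replicate 2 was within it. AURKB's log2 fold changes from edgeR were -1.03 (SE 0.42, adjusted p = 0.0574) at 6 h, -1.11 (SE 0.42, adjusted p = 0.0430) at 12 h and -0.45 (SE 0.48, adjusted p = 0.432) at 24 h. AURKB lost its 12 h call without 0 h replicates 1, 2 or 3, 6 h replicate 1 or 12 h replicates 1 or 3 (-1.23 to -0.83). AURKB was called lower at 6 h without 6 h replicate 2, 12 h replicate 1 or 24 h replicates 1 or 2 (-1.35 to -1.02).

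INCENP, the scaffold, fell by 1.02 on the log2 scale at 24 h (edgeR adjusted p = 0.0227) and was at 0.20 and -0.06 at 6 and 12 h. INCENP lost its 24 h call without 0 h replicates 1 or 3 or 24 h replicate 1 (-0.98 to -0.91). CDCA8, or borealin, fell by 0.81 at 24 h (adjusted p = 0.0232) and was at -0.50 and -0.49 before. CDCA8 lost its 24 h call without 0 h replicate 1 or 24 h replicate 2 (-0.69 to -0.64). CDCA8 was called lower at 6 h without 24 h replicate 1 (-0.53). BIRC5, or survivin, was at -0.50, -0.31 and 0.61 and was not called, although both 24 h libraries, at 26.1 and 42.6 CPM, lay above the normoxic range of 18.6 to 25.7 CPM. BIRC5 was called higher at 24 h without 6 h replicate 3 (0.62).

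HMMR, a microtubule-binding protein of the spindle poles also known as a hyaluronan receptor, had the largest loss of the 44 at 6 and 12 h. HMMR (ENSG00000072571, 5:163460203-163491941) stood at 38.7, 25.6 and 32.7 CPM in normoxia, 4.58, 3.57 and 3.01 at 6 h, 5.01, 5.57 and 5.89 at 12 h, and 9.71 and 8.01 at 24 h. All 8 hypoxic libraries lay below all 3 normoxic ones, with 6 h lowest and 24 h highest among them. HMMR's log2 fold changes from edgeR were -3.13 (SE 0.21, adjusted p = 6.15e-07) at 6 h, -2.56 (SE 0.20, adjusted p = 2.87e-06) at 12 h and -1.86 (SE 0.23, adjusted p = 2.55e-05) at 24 h. Its call was kept at each time in the 11 fits with a library left out.

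TPX2 (ENSG00000088325, 20:31739271-31801805), which activates AURKA on the spindle, stood at 161, 111 and 138 CPM in normoxia, 108, 113 and 62.6 at 6 h, 96.8, 133 and 118 at 12 h, and 169.6 and 98.97 at 24 h. The hypoxic values overlapped with normoxia at each time. TPX2's log2 fold changes from edgeR were -0.53 (SE 0.25, adjusted p = 0.0900) at 6 h, -0.24 (SE 0.25, adjusted p = 0.450) at 12 h and -0.02 (SE 0.28, adjusted p = 0.947) at 24 h. TPX2 was called lower at 6 h without 24 h replicates 1 or 2 (-0.56). DLGAP5, a protein of kinetochore fibers, fell by 0.77 on the log2 scale at 6 h (adjusted p = 0.0497), was at -0.76 at 12 h (adjusted p = 0.0531) and was at 0.10 at 24 h. DLGAP5 lost its 6 h call without 0 h replicates 1, 2 or 3, 6 h replicates 2 or 3 or 12 h replicates 1 or 3 (-0.89 to -0.44), and with median-of-ratios scaling (-0.76). DLGAP5 was called lower at 12 h without 6 h replicates 1 or 3 or 24 h replicates 1 or 2 (-0.78 to -0.76).

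PRC1 (ENSG00000198901, 15:90966040-90995629), which bundles microtubules of the central spindle, stood at 1.89, 2.03 and 2.21 CPM in normoxia, 1.37, 1.52 and 0.948 at 6 h, 0.981, 1.48 and 1.55 at 12 h, and 1.71 and 2.40 at 24 h. Values at 6 and 12 h were below normoxia and those at 24 h overlapped with it. These low counts come from a gene whose exonic bases are shared with other annotated genes, 57.6% on the same strand and 34.3% on the other. PRC1's log2 fold changes from edgeR were -0.69 (SE 0.26, adjusted p = 0.0399) at 6 h, -0.60 (SE 0.26, adjusted p = 0.0697) at 12 h and -0.001 (SE 0.29, adjusted p = 0.998) at 24 h. PRC1 lost its 6 h call without 0 h replicates 1, 2 or 3, 6 h replicates 1 or 3 or 12 h replicate 3 (-0.75 to -0.49), and with no filter on low counts (-0.73) and the replicate block (-0.70). PRC1 was called lower at 12 h without 24 h replicates 1 or 2 (-0.62 to -0.60). NUSAP1 had between 0.207 and 0.586 CPM and log2 fold changes of 0.01, -0.17 and -0.09, not called.

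The cytokinesis genes ECT2 and ANLN were not called. ECT2 (ENSG00000114346, 3:172750682-172821474), the exchange factor that turns on RhoA at the cleavage furrow, stood at 49.9, 43.6 and 46.4 CPM in normoxia, 70.2, 64.7 and 49.5 at 6 h, 52.5, 53.7 and 49.8 at 12 h, and 79.1 and 44.6 at 24 h. Values at 6 h reached above normoxia in replicates 1 and 2, and at 24 h replicate 1 was above normoxia and replicate 2 within it. ECT2's log2 fold changes from edgeR were 0.40 (SE 0.19, adjusted p = 0.101) at 6 h, 0.16 (SE 0.19, adjusted p = 0.518) at 12 h and 0.41 (SE 0.22, adjusted p = 0.115) at 24 h. ECT2 was called higher at 6 h without 6 h replicate 3 or 24 h replicates 1 or 2 (0.37 to 0.54). ECT2 was called higher at 24 h without 24 h replicate 2 (0.74). ANLN, or anillin, was at -0.17, -0.0082 and -0.0011. ANLN was called lower at 24 h without 24 h replicate 1 (-0.99).

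Around the APC/C, securin rose and separase fell at 12 and 24 h. PTTG1 (ENSG00000164611, 5:160421855-160428739), securin, the inhibitor of separase, stood at 55.2, 43.1 and 48.0 CPM in normoxia, 107, 109.6 and 64.9 at 6 h, 78.4, 96.9 and 87.3 at 12 h, and 152 and 169 at 24 h. Every hypoxic library was above every normoxic one, 6 h replicate 3 being the lowest of them, and 24 h was above both earlier times. PTTG1's log2 fold changes from edgeR were 0.94 (SE 0.19, adjusted p = 0.00131) at 6 h, 0.84 (SE 0.19, adjusted p = 0.00296) at 12 h and 1.72 (SE 0.21, adjusted p = 2.32e-05) at 24 h. The call was kept at each time in all 11 fits with a library left out. PTTG1 lost its 12 h call with scaling by library size alone (0.38). PTTG2, PTTG3P and PTTG4P, close copies of PTTG1, together had 85 counts over all libraries, against 31999 for PTTG1.

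ESPL1 (ENSG00000135476, 12:53268299-53293638), separase, stood at 23.2, 16.6 and 20.0 CPM in normoxia, 14.9, 14.7 and 8.95 at 6 h, 7.27, 14.99 and 13.6 at 12 h, and 5.86 and 6.81 at 24 h. Hypoxic values were all lower than the normoxic ones and both 24 h values were lower than all others. ESPL1's log2 fold changes from edgeR were -0.64 (SE 0.26, adjusted p = 0.0576) at 6 h, -0.73 (SE 0.26, adjusted p = 0.0341) at 12 h and -1.66 (SE 0.32, adjusted p = 0.000745) at 24 h. ESPL1 lost its 12 h call without 0 h replicates 1 or 3 or 12 h replicate 1 (-0.74 to -0.48). ESPL1 was called lower at 6 h without 12 h replicates 1 or 2 or 24 h replicates 1 or 2 (-0.67 to -0.64).

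CDC20 (ENSG00000117399, 1:43358981-43363203), the APC/C activator of early mitosis, stood at 73.8, 55.8 and 72.0 CPM in normoxia, 86.2, 114 and 48.1 at 6 h, 59.6, 89.6 and 77.2 at 12 h, and 94.9 and 101 at 24 h. Values at 6 and 12 h overlapped with normoxia and those at 24 h were above it. CDC20's log2 fold changes from edgeR were 0.30 (SE 0.26, adjusted p = 0.341) at 6 h, 0.17 (SE 0.26, adjusted p = 0.608) at 12 h and 0.54 (SE 0.28, adjusted p = 0.115) at 24 h. CDC20 was called higher at 6 h without 6 h replicate 3 (0.58). CDC20 was called higher at 24 h without 6 h replicate 3 (0.55).

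UBE2C (ENSG00000175063, 20:45812576-45816957), the ubiquitin-conjugating enzyme of the APC/C, stood at 68.1, 46.9 and 57.3 CPM in normoxia, 48.6, 58.9 and 25.2 at 6 h, 27.4, 48.6 and 42.4 at 12 h, and 40.2 and 56.2 at 24 h. Values at each time overlapped with normoxia. UBE2C's log2 fold changes from edgeR were -0.38 (SE 0.29, adjusted p = 0.286) at 6 h, -0.54 (SE 0.29, adjusted p = 0.135) at 12 h and -0.25 (SE 0.33, adjusted p = 0.514) at 24 h.

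TOP2A (ENSG00000131747, 17:40388525-40417896), the topoisomerase that untangles sister chromatids, stood at 207, 139 and 170.3 CPM in normoxia, 121, 111 and 44.9 at 6 h, 55.4, 102 and 87.5 at 12 h, and 100.3 and 51.8 at 24 h. All hypoxic values were below normoxia, lowest in 6 h replicate 3, 24 h replicate 2 and 12 h replicate 1. TOP2A's log2 fold changes from edgeR were -0.90 (SE 0.35, adjusted p = 0.0464) at 6 h, -1.07 (SE 0.35, adjusted p = 0.0228) at 12 h and -1.18 (SE 0.41, adjusted p = 0.0239) at 24 h. TOP2A lost its 6 h call without 0 h replicates 1, 2 or 3, 6 h replicates 2 or 3 or 12 h replicate 3 (-1.05 to -0.57). TOP2A lost its 12 h call without 0 h replicate 1 or 12 h replicate 1 (-0.93 to -0.86). TOP2A lost its 24 h call without 0 h replicate 1 or 24 h replicate 2 (-1.03 to -0.80). Without 24 h replicate 1 the 24 h value of TOP2A was -1.79.

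MKI67 (ENSG00000148773, 10:128096659-128126423), the Ki-67 antigen that is stained to find cycling cells, stood at 239, 146 and 206 CPM in normoxia, 208, 221 and 58.4 at 6 h, 92.7, 232 and 193 at 12 h, and 82.9 and 49.5 at 24 h. Outside 6 h replicate 3 and 12 h replicate 1, the 6 and 12 h values lay within the normoxic range, and both 24 h values were below it. MKI67's log2 fold changes from edgeR were -0.28 (SE 0.44, adjusted p = 0.606) at 6 h, -0.19 (SE 0.44, adjusted p = 0.734) at 12 h and -1.57 (SE 0.52, adjusted p = 0.0184) at 24 h. MKI67 lost its 24 h call without 24 h replicate 2 (-1.27).

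FOXM1 (ENSG00000111206, 12:2857680-2877174), the transcription factor of G2/M genes, stood at 35.4, 27.4 and 32.8 CPM in normoxia, 26.9, 26.0 and 11.4 at 6 h, 12.4, 26.0 and 22.7 at 12 h, and 14.1 and 6.65 at 24 h. Hypoxic values were all below normoxia, with 24 h replicate 2 the lowest. FOXM1's log2 fold changes from edgeR were -0.58 (SE 0.35, adjusted p = 0.177) at 6 h, -0.64 (SE 0.35, adjusted p = 0.140) at 12 h and -1.61 (SE 0.42, adjusted p = 0.00516) at 24 h. Of FOXM1's exonic bases 15.9% are shared with a gene on the other strand.

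Set against the median of the other mitosis genes in the same library, the genes were tighter within a time, with a median pooled SD of 0.24 on the log2 scale in place of 0.46, smaller for 36 of the 44. On that relative scale HMMR was lower than in normoxia by a mean shift of -2.36, -1.82 and -1.52 at 6, 12 and 24 h, CDC25B of -1.19, -1.20 and -2.32 and NUF2 of -1.04, -0.89 and -0.37, with no overlap between the libraries of each time and normoxia. PTTG1 was shifted by 1.76, 1.59 and 2.14, CDC20 by 1.08, 0.90 and 0.96 and CCNB1 by 0.71, 0.30 and 0.75, again without overlap. MKI67 was at 0.38 and 0.48 at 6 and 12 h, overlapping with normoxia, and at -1.18 at 24 h, below it. FOXM1 at -1.37, BUB1B at -1.09 and ESPL1 at -1.19 were below it at 24 h in the same way. Of the 44 genes 18, 19 and 12 lay wholly above normoxia on this scale at 6, 12 and 24 h, and 10, 12 and 14 wholly below. These shifts are relative to genes that themselves leaned down, and they are given as a description without a test.

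Between 6 and 12 h none of the 44 genes was called by edgeR, limma-voom (with or without sample quality weights) or DESeq2, where edgeR called 1.88% of all tested genes higher and 3.07% lower at 12 h, 4.95% in all. At an unadjusted p under 0.05 there were 2, HMMR at 0.57 (adjusted p = 0.125) and NDC80 at 0.72 (adjusted p = 0.226). Between 12 and 24 h 5 genes were called higher and 2 lower, 11.4% and 4.55% of the 44, against 15.1% and 13.3% of all tested genes (28.4% either way). The median of the 44 was 0.34, and 33 of 44 values were positive, called or not. Of all 19981 tested genes 9919 were positive, with a median of -0.006. The 5 that rose were NUF2 by 0.91, PTTG1 by 0.88, CDC25C by 0.87, HMMR by 0.69 and BUB3 by 0.66 on the log2 scale, with edgeR adjusted p = 0.0154, 0.00971, 0.0391, 0.0335 and 0.0168. CDC25B and ESPL1 were at -0.78 and -0.92 (adjusted p = 0.00465 and 0.0446). NUF2 lost its 24 h against 12 h call without 12 h replicate 3 (0.90). CDC25C lost its 24 h against 12 h call without 0 h replicates 1, 2 or 3, 12 h replicates 1, 2 or 3 or 24 h replicates 1 or 2 (0.76 to 0.99). HMMR lost its 24 h against 12 h call without 0 h replicate 3, 12 h replicates 1, 2 or 3 or 24 h replicate 1 (0.51 to 0.74). BUB3 lost its 24 h against 12 h call without 12 h replicate 2 or 24 h replicate 2 (0.30 to 0.66). ESPL1 lost its 24 h against 12 h call without 0 h replicates 1, 2 or 3, 6 h replicates 1 or 2, 12 h replicates 2 or 3 or 24 h replicates 1 or 2 (-1.05 to -0.74). The libraries of 24 h lay wholly above those of 12 h for 14 of the 44 genes and wholly below for 4 (31.8% and 9.09%), against 23.7% and 25.6% of all tested genes. With each library left out in turn 2 to 12 genes were called higher and 1 to 5 lower. There were 2 higher without 12 h replicate 2 or 12 h replicate 3 (1489 of all 19903 genes and 1585 of all 19927). Without 6 h replicate 3 there were 12 higher (3046 of all 19861), and without 12 h replicate 1 there were 5 lower (2540 of all 19908). With median-of-ratios scaling 6 were called higher and 1 lower (3236 and 2504 of all 19981 genes). Scaling by library size alone gave 0 and 4 (848 and 4610), and limma-voom 3 and 1 (2578 and 2619). With limma-voom and sample quality weights none of the 44 was called, where 1093 of all 19981 genes were. Nor was any called with only the 2 groups compared in the fit, where edgeR called 0 of all 17807 genes tested.

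Another 116 genes of mitosis, in lists that do not contain the 44, had medians nearer 0 when pooled, though not in every list. At 6, 12 and 24 h 33, 33 and 17 of them were called lower and 14, 13 and 26 higher, with medians of -0.23, -0.22 and -0.02. Those are 28.4%, 28.4% and 14.7% lower, against 27.7%, 27.1% and 31.3% of all tested genes, and 12.1%, 11.2% and 22.4% higher, against 25.1%, 24.2% and 29.9%, so the lower calls were at or below the share of all genes. Other kinetochore and centromere genes had the lowest median among these lists at 6 h, with 12 and 13 of 28 lower at 6 and 12 h (42.9% and 46.4%) and medians of -0.48 and -0.43, and with 5 lower and 6 higher at 24 h. CENPC, which ties the kinetochore to centromeric chromatin, was lower at each time (log2 fold changes -1.15, -1.32 and -1.68). With 1 library left out, those called higher at 6 h were 2 without 6 h replicate 2, and higher at 12 h were 1 without 0 h replicates 1, 2 or 3 or 12 h replicates 2 or 3 and 4 without 24 h replicates 1 or 2. Those lower at 12 h were 6 without 0 h replicate 1 or 12 h replicates 1 or 3, and lower at 24 h were 8 without 24 h replicate 1. Of 24 further spindle and cytokinesis genes 7, 7 and 5 were lower (29.2%, 29.2% and 20.8%) and 1, 1 and 4 higher (4.17%, 4.17% and 16.7%). Their medians were -0.30, -0.49 and -0.57, so at 24 h this list lay farther below 0 than the 44 (-0.32). The lowest averages over the 3 times were those of CIT, the citron kinase of cytokinesis (-1.81, -1.62 and -2.59), and TROAP (-2.12, -1.97 and -1.25). With 1 library left out, those called higher at 6 h were 2 without 6 h replicate 3, and lower at 12 h were 3 without 12 h replicate 1. Those higher at 24 h were 2 without 0 h replicates 2 or 3 or 24 h replicate 1, and lower at 24 h were 11 without 24 h replicate 1.

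Of 19 regulators of mitotic entry 6, 4 and 1 were called lower (31.6%, 21.1% and 5.26%) and 3, 4 and 5 higher (15.8%, 21.1% and 26.3%), against 27.7%, 27.1% and 31.3% and 25.1%, 24.2% and 29.9% of all tested genes. CKS2, a small partner of CDK1, rose by 1.72, 1.44 and 2.36 on the log2 scale (edgeR adjusted p = 3.35e-05, 0.000154 and 4.93e-06), and CDC25A, the family member of G1/S and S phase, rose by 1.04, 1.07 and 1.05 (adjusted p = 0.000403, 0.000428 and 0.000632). CDC25A and CDC25B thus stood on opposite sides of normoxia at each time. CDCA3 was at -1.34, -1.46 and -0.92, called at 6 and 12 h. Entry regulators called lower at 12 h were 2 without 0 h replicates 1 or 3 or 12 h replicate 1, and lower at 24 h were 0 without 0 h replicates 1 or 3 and 4 without 6 h replicate 3. Of the 14 core subunits of the APC/C 4, 4 and 1 were lower (28.6%, 28.6% and 7.14%) and 1, 1 and 6 higher (7.14%, 7.14% and 42.9%), with CDC26 (1.36, 1.52 and 2.13) and ANAPC2 (-0.80, -0.78 and -0.81) at the ends of the order by average over the 3 times. APC/C genes called higher at 12 h were 2 without 24 h replicates 1 or 2, and lower at 24 h were 3 without 24 h replicates 1 or 2.

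Of 12 genes of MuvB, DREAM and B-MYB 1, 2 and 2 were lower (8.33%, 16.7% and 16.7%) and 3, 3 and 2 higher (25%, 25% and 16.7%). The shares of all tested genes were 27.7%, 27.1% and 31.3% lower and 25.1%, 24.2% and 29.9% higher. RBL1, the pocket protein p107, was lower at each time (-1.73, -1.04 and -1.69), and E2F4, its partner in DREAM, was higher (0.88, 0.93 and 0.70). MuvB and DREAM genes called lower at 6 h were 3 without 24 h replicates 1 or 2, and higher at 12 h were 1 without 0 h replicates 1 or 3 or 12 h replicates 1 or 3. Those lower at 12 h were 1 without 0 h replicate 1 or 12 h replicates 1 or 2 and 4 without 24 h replicates 1 or 2, and lower at 24 h were 4 without 24 h replicate 1. Of 8 condensin genes 2 were lower (25%) and 0 higher at each time, with NCAPD2 at -0.92, -0.92 and -1.35. Without single libraries, condensin genes lower at 12 h were 1 without 0 h replicate 1 or 12 h replicate 1, and higher at 24 h were 2 without 24 h replicate 2. Those lower at 24 h were 1 without 24 h replicate 2 and 5 without 24 h replicate 1. Of 11 genes of cohesin and its protectors 1 was lower at each time (9.09%) and 2, 2 and 3 were higher (18.2%, 18.2% and 27.3%). SMC1A was at -0.57, -0.60 and -1.50 and WAPL, which releases cohesin from DNA, at 0.78, 0.87 and 0.71. Cohesin genes called higher at 6 h were 1 without 0 h replicates 1, 2 or 3 or 6 h replicates 1 or 2 or 12 h replicate 2 and 4 without 6 h replicate 3 or 24 h replicate 2, and lower at 6 h were 3 without 24 h replicates 1 or 2. Those higher at 12 h were 5 without 24 h replicate 2, and lower at 12 h were 2 without 24 h replicates 1 or 2. Those higher at 24 h were 1 without 24 h replicate 1 and 5 without 24 h replicate 2, and lower at 24 h were 5 without 24 h replicate 1.

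Of 41 genes of G1/S and DNA replication 15, 12 and 10 were called lower (36.6%, 29.3% and 24.4%) and 8, 10 and 11 higher (19.5%, 24.4% and 26.8%), with medians of -0.27, -0.05 and 0.11. Of all tested genes 27.7%, 27.1% and 31.3% were lower and 25.1%, 24.2% and 29.9% higher. CCNE1, cyclin E1, rose by 1.40, 0.66 and 0.99 on the log2 scale (edgeR adjusted p = 0.000184, 0.0219 and 0.00328), and PRIM1, the primase subunit, fell by 2.05, 1.47 and 0.81 (adjusted p = 1.07e-06, 1.09e-05 and 0.000983). In fits that each left out 1 library, called higher at 6 h were 4 without 0 h replicate 2, and higher at 12 h were 3 without 0 h replicate 2. Those lower at 12 h were 7 without 0 h replicates 1 or 3 or 12 h replicate 1, and lower at 24 h were 5 without 0 h replicates 1 or 3.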

How the data were processed

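RNA-seq reads of 11 RWPE1 libraries were processed by the authors, who used Trimmomatic for trimming, STAR for alignment to GRCh38 and featureCounts to count reads over Ensembl genes. The deposited values are whole-number counts per gene and library, not normalized. The settings for strand and for reads with several matches are not given in the sources used here.

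Genes were filtered with filterByExpr (minimum count 10, minimum total 15), which left 19981, and scaled by TMM. edgeR 4.0.16 was fitted to all 11 libraries by time point, and p-values of its quasi-likelihood test were adjusted over these genes by the Benjamini-Hochberg method. Standard errors are the log2 fold change over the square root of F. CPM values use TMM-scaled library sizes, and log2 CPM a prior count of 2. Depths of 27496009 to 49488345 counts and a common biological coefficient of variation of 19.6% set the precision. An exact permutation test of 3 against 3 libraries cannot give a two-sided p below 0.1, so none was used. The fit was tested on simulated data, in which far fewer genes were changed than were called here. Of 93 genes changed by 1 on the log2 scale edgeR called 46, 42 and 29 at 6, 12 and 24 h. Of 97 changed by 2 it called 92, 89 and 84. A gene that was not called may therefore still have changed by 1 on the log2 scale. Alternatives were limma-voom (limma 3.58.1, with and without sample quality weights), DESeq2 1.42.0, 2 other scalings, 2 other filters, only the groups compared, a replicate block and each library left out.

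The 44 genes and the other lists were chosen with earlier results of these data known. Full values are given for genes fixed by name for each role and for the 3 highest and 3 lowest average fold changes. Others are given by fold change, and for the other lists the 2 highest and 2 lowest averages may be named. Gene positions and shared exonic bases come from GENCODE release 44, promoters from RefSeq (GRCh38.p14).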

Additional observations from a re-analysis of the deposited data

Results flagged for a closer look

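Between 12 and 24 h of hypoxia the effect against normoxia differed for 7 of the 44 genes by the direct edgeR quasi-likelihood test with Benjamini-Hochberg adjustment. These were 11.4% higher and 4.55% lower, below the 15.1% and 13.3% of all tested genes (28.4% either way). The log2 change from 12 to 24 h was 0.91 for NUF2, 0.88 for PTTG1, 0.87 for CDC25C, 0.69 for HMMR and 0.66 for BUB3. It was -0.78 for CDC25B and -0.92 for ESPL1. The 24 h libraries lay wholly above or wholly below the 12 h ones for each of the 7, which were picked on these same values. Of all tested genes 23.7% lay wholly above and 25.6% wholly below. The 24 h group has 2 libraries, and BUB3 was at 0.30 without 24 h replicate 2. None of the 7 was called with limma-voom and sample quality weights or with only the 2 groups compared, and 4 were with limma-voom. CDC25C lost the call in 8 and ESPL1 in 9 of the 11 fits that left out 1 library.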

How the results depend on the processing

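Alternatives changed counts of called genes more than directions. Counts over all tested genes in the same fit stand in brackets. At 6 h, 26 of the 44 genes were called lower with limma-voom and sample quality weights (6633 of 19981). Scaling by library size alone gave 24 lower (7130 of 19981) and no filter on low counts 27 (6058 of 39835). Quality weights gave 2 higher (6549 of 19981), as did only the groups compared (5902 of 18683). So did leaving out both 6 h replicate 3 and 12 h replicate 1 (4657 of 19790). At 12 h, 30 were lower with quality weights (7766 of 19981) and 32 with library size alone (8444 of 19981). No filter gave 27 lower (5713 of 39835) and only the groups compared 29 (6661 of 18657). With library size alone 0 were higher (2116 of 19981). At 24 h, 2 were lower and 1 higher with quality weights (2450 and 3719 of 19981). With library size alone 30 were lower and 1 higher (11305 and 2222 of all 19981 genes). No filter gave 21 lower (7094 of 39835), and 4 were higher without 6 h replicate 3 and 12 h replicate 1 (5924 of 19790). BUB3 at 24 h turned to -0.37 with library size alone, a scaling that moved the median of all tested genes at 24 h to -0.97. Between 6 and 12 h, 2 were called higher with no filter (891 of 39835).

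From 12 to 24 h the counts higher and lower were 3 and 1 with limma-voom (2578 and 2619 of all 19981 genes). They were 0 and 0 with quality weights (684 and 409 of 19981). DESeq2 gave 11 and 4 (3714 and 2879 of 18044) and median-of-ratios scaling 6 and 1 (3236 and 2504 of 19981). Library size alone gave 0 and 4 (848 and 4610 of 19981) and no filter 10 and 6 (2800 and 3344 of 39835). Only the groups compared gave 0 and 0 (0 of 17807). Without 6 h replicate 3 and 12 h replicate 1 they were 9 and 6 (2679 and 2622 of 19790). The cause of these shifts was not tested.

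With each library left out in turn, the counts lower and higher were 9 to 21 and 1 to 3 (6 h), 8 to 23 and 1 to 1 (12 h) and 7 to 14 and 2 to 4 (24 h, with 17 lower when 6 h replicate 3 and 12 h replicate 1 were both left out). Between 6 and 12 h they were 0 to 0 and 0 to 1, and between 12 and 24 h 1 to 5 and 2 to 12. The median log2 fold change against 0 h stayed negative in each such fit: its limits were -0.75 and -0.27 (6 h), -0.85 and -0.44 (12 h), and -0.52 and -0.21 (24 h).

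With the replicate block the lower and higher counts were 14 and 1 at 6 h, 14 and 1 at 12 h, 13 and 2 at 24 h, and 1 and 3 from 12 to 24 h. Over all 19981 genes they were 5358 and 4766, 5177 and 4628, 5956 and 5578, and 2161 and 2302. The labels do not say whether libraries with the same replicate number belong together. Over 15 same-numbered pairs the correlation of deviations ran from -0.16 to 0.21, with 2 over 0.1. Over 30 differently numbered pairs it ran from -0.27 to 0.28, with 3 over 0.1. Of 11 libraries 4 correlated best with their own number. These values do not settle whether the libraries were paired.

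The 2 libraries at 24 h and the low counts of PRC1 and NUSAP1 limit what could be seen.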
